A study of Mus musculus with 17 samples.

Results

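The genes described here are the glycosyltransferases and sulfotransferases that build mucin O-glycans and other glycans in the mouse colon. They were chosen by symbol, from the prefixes Galnt, B4galnt, B3gnt, B3galt, B4galt, Fut, Gcnt, St3gal, St6gal, St8sia, C1galt1 and Chst, and 93 of the 23719 entries of the count table matched. They carry 92 distinct symbols, since St6galnac2 has a pair of entries, and 2 of the symbols, Galnt6os and St8sia3os, are antisense RNAs and not enzymes. Bulk RNA was taken from colon explants of male C57BL/6 mice aged 32 to 34 weeks. The 8 GWI mice (a model of Gulf War illness) drank pyridostigmine bromide at 2 mg/kg for 7 days, recovered for 21 days without it and gave tissue at day 30, and the 9 Control mice drank water. The layers of the wall in each explant were not named, and total counts ran from 16293537 to 20741212 per colon.

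Mucin O-glycans start when a Galnt enzyme adds N-acetylgalactosamine to serine or threonine in the Golgi. Core enzymes then extend or branch that sugar, galactose and N-acetylglucosamine are added in turn, and the chain is capped with fucose, sialic acid, sulfate or a further N-acetylgalactosamine. In the colon, goblet cells and absorptive cells carry these chains on secreted Muc2 and on membrane mucins, and related enzymes build N-glycans, glycolipids and the proteoglycans of muscle and stroma.

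Some colons stood apart before any comparison of groups. Hoxb13, a gene of the hindmost gut, reached 55.5 CPM (the count scaled to its library's TMM-adjusted total) in Control 1 and 11.4 in GWI 5, while the highest value in any other colon was 2.67, in Control 2. Among the 79 members with enough counts to test, Control 1 held the highest Control value in 27 and the lowest in 19, and GWI 5 held the highest GWI value in 25 and the lowest in 16. In 19 members both colons were the highest of their groups and in 11 both were the lowest. Across the 79 members, the log2 ratios of these 2 colons to the medians of the rest of their groups had r = 0.82 and rho = 0.78, as a description across genes that share the same libraries. Control 6 and Control 7 carried small intestine transcripts, with Fabp6 at 119 and 314 CPM against at most 6.90 in the other colons. In Control 9 mt-Co1 took 12.5% of all counts, and that colon had the lowest median Spearman correlation with its own group, 0.927. Control 9 was the highest or lowest Control colon in 35 of the 79 members, against 46 for Control 1. Results are therefore also given without some of these colons. Leaving out Control 1 with GWI 5, and leaving out Control 1, 6, 7 and 9 with GWI 5, were chosen after seeing the data. Leaving out Control 6 and Control 7 also rests on their small intestine transcripts in these same data.

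In GWI, 12 members were called higher and 10 lower at an adjusted p under 0.05 (edgeR quasi-likelihood test, Benjamini-Hochberg adjustment over all 14146 tested genes). The 12 were 15.2% of the 79 tested members, and 13.4% of all tested genes were called higher. The 10 were 12.7% of the tested members, and 13.5% of all tested genes were called lower. The share called in each direction was thus near that of all genes, and the median log2 fold change of the members was 0.00 beside -0.06 over all tested genes. The directions differed in level. All 12 called higher had a mean over 10 CPM, and the median of their means was 168 CPM. Of the 10 called lower, 8 had a mean up to 10 CPM, and the median of the 10 was 4.11 CPM. Among all tested genes 18.4% were called higher and 12.2% lower over 10 CPM, while up to 10 CPM 121 of 4524 were called higher and 726 lower. Without Control 1 and GWI 5, 19 members were called higher and 11 lower, and these held all 22 members called with every colon, while 17.4% and 17.5% of all tested genes were called there. Leaving out Control 1 alone gave 20 called higher, and 17.9% of all tested genes were called higher there. The count called lower was 6 without GWI 2, 5 without GWI 3, 6 without GWI 4, 5 without GWI 7 and 5 without Control 6 and Control 7, while 9.21% to 10.6% of all tested genes were called lower in these fits. In bulk tissue, fewer cells of a type and less RNA per cell cannot be told apart, and p-values measure the spread between these colons. The labels number the colons and also give each a short code, and some codes of the same group share their opening characters. What the codes mark is not given in the sources used here, so a shared cage or litter was not tested, and if some colons shared one the p-values could be too small.

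A stricter size rule, an unadjusted p under 0.05 with a fold change past 2 in either direction, was met by 2 members that were higher, B4galnt2 and B4galnt3, and 2 that were lower, St6galnac3 and St8sia4. Of all tested genes, 0.650% met it as higher and 1.77% as lower. With each colon left out in turn the count ran from 2 to 4 higher, with 4 without Control 1, and from 1 to 7 lower, with 7 without GWI 5, 5 without Control 8, 4 without Control 5, Control 7 or GWI 8, and 1 without Control 3, Control 6, GWI 3, GWI 6 or GWI 7. In the same fits the share of all tested genes ran from 0.533% to 1.65% higher, highest without Control 1, and from 1.14% to 3.44% lower, highest without GWI 5. The 8 GWI values lay above all 9 Control values in 1 member, B4galt3, as in 1.83% of all tested genes, and below them in 0 members, as in 0.523%. Leaving out GWI 8 made the count below 2, beside 0.990% of all tested genes, and leaving out Control 5 made it 1, beside 0.558%. The count above was 6 without Control 1, 3 without Control 7 and 3 without GWI 5, beside 5.06%, 1.94% and 2.69% of all tested genes. Without Control 1 and GWI 5 they lay above in 8 members, as in 5.91% of all tested genes, and below in 0, as in 3.49%.

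**Figure D1:**
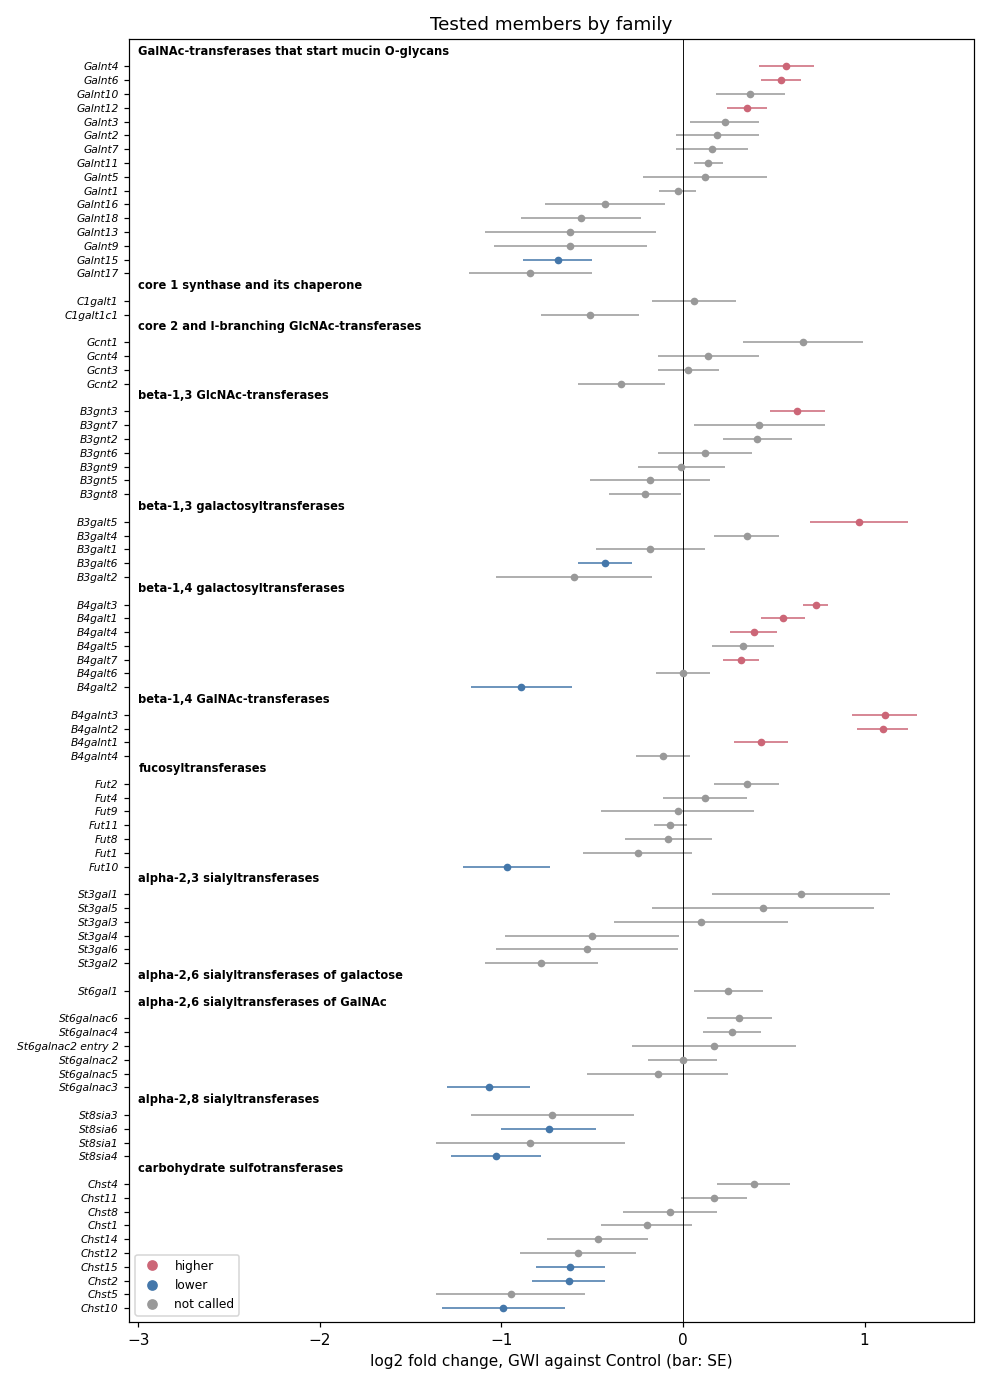
Log2 fold change of GWI against Control (horizontal axis) with its SE (bar) for each of the 79 tested members, grouped by family. Red points were called higher (12), blue points lower (10), and grey points were not called.

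Levels between genes were compared per kilobase of exon, as the mean over the 17 colons. B4galnt2, which builds the Sda antigen of the colon, was the most abundant of all tested members at 367 CPM per kb, followed by Gcnt3, a branching enzyme, at 140.0 and St6galnac6, a sialyltransferase, at 104. The leading genes of the other families were B3galt5 at 80.6, C1galt1c1 at 74.8, Galnt12 at 70.6, St3gal4 at 66.4, B3gnt3 at 65.7, Fut2 at 41.4, B4galt4 at 25.1, Chst4 at 14.9 and St6gal1 at 13.9 CPM per kb. The alpha-2,8 sialyltransferases were far below the rest, and their leading gene St8sia6 had 0.249 CPM per kb. The summed level of the B4galnt genes was 287 CPM per kb in Control and 578 in GWI, of which B4galnt2 held 86.5%, and that of the B3galt genes was 65.1 and 118.

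Of the enzymes that start the chain, 16 Galnt genes were tested, 3 were called higher and 1 lower, beside 13.4% and 13.5% of all tested genes. Galnt6 had 119.7, 180.0 and 231 CPM (lowest, median and highest) in Control and 215, 249.7 and 295 in GWI. All 9 Control colons but Control 7 lay below every GWI colon. The fold change was 0.54 on the log2 scale with an SE of 0.11 (edgeR adjusted p = 0.0036). Galnt4 rose by 0.57 (edgeR adjusted p = 0.012) and Galnt12 by 0.35 (edgeR adjusted p = 0.033). In Galnt4 the lowest value of each group was in the colons that stood apart, 158 CPM in Control 1 and 265 in GWI 5. Galnt12, the leading gene of the family, had a median of 139 CPM in Control and 185 in GWI.

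Galnt15 was the family member called lower. It had 6.06, 7.86 and 13.4 CPM in Control and 2.84, 5.17 and 7.29 in GWI. Every GWI colon lay below the Control median, and 5 Control colons lay above all GWI colons, with Control 6 the highest. The log2 fold change was -0.69 with an SE of 0.19 (edgeR adjusted p = 0.015). The family's other tested members ran from -0.84 in Galnt17 to 0.37 in Galnt10. With every colon and no covariate, none of those was called by edgeR. DESeq2 called Galnt17 lower as well (DESeq2 adjusted p = 0.041), as did edgeR without Control 8, without Control 9 and without GWI 8. With the muscle minus epithelium score as a covariate the fold change of Galnt17 was 0.41 and not called. With limma-voom, which called 27.6% of all tested genes higher and 29.5% lower, 8 Galnt genes were called higher and 6 lower.

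With every colon and no covariate, none of the core enzymes was called by edgeR: of the C1galt1 and Gcnt genes, 0 had an unadjusted p under 0.05, and DESeq2 called 0. The calls differed with limma-voom, which called C1galt1 higher, with a log2 fold change of 0.49 (limma adjusted p = 0.0035), Gcnt1 higher and Gcnt2 lower. Gcnt1, at 0.66 with every colon, was called higher by edgeR without Control 1, and without Control 1 and GWI 5 at 0.86 (edgeR adjusted p = 0.034). With the muscle minus epithelium score as a covariate, C1galt1c1 was called lower, with a log2 fold change of -1.18 (edgeR adjusted p = 0.0064), while C1galt1, Gcnt3 and B3gnt6 turned to -0.57, -0.38 and -0.30 and were not called. C1galt1, which adds galactose to make the core of most O-glycans, had 184, 217 and 643 CPM in Control and 239.5, 314 and 395 in GWI, with a log2 fold change of 0.06 and an SE of 0.23 (edgeR adjusted p = 0.86). All 8 GWI colons were above the Control median, and the highest values were in Control 9 and Control 7, the latter at 426 CPM. Its chaperone C1galt1c1, without which the enzyme is not active, had 51.7, 97.3 and 320.3 CPM in Control and 66.6, 90.2 and 104 in GWI, with a log2 fold change of -0.51 and an SE of 0.27 (edgeR adjusted p = 0.16). The highest value was again in Control 9, and the next in its group was 160.2 CPM, in Control 7. Gcnt3, which branches the core and made up 92.8% of the per-length level of the tested Gcnt genes, had medians of 564 CPM in Control and 647 in GWI and a log2 fold change of 0.03 with an SE of 0.17 (edgeR adjusted p = 0.92). Gcnt3 was lowest in Control 1 and in GWI 5. B3gnt6, which makes the alternative core typical of the colon, had 16.4, 55.2 and 106 CPM in Control and 48.0, 59.0 and 89.7 in GWI, with a log2 fold change of 0.12 and an SE of 0.26 (edgeR adjusted p = 0.76). C1galt1 and B3gnt6 are named for their roles and were picked after their values were seen.

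Of the enzymes that extend the chain, B4galt3, a beta-1,4 galactosyltransferase, had the smallest p-value of all 14146 tested genes. Its level was 17.5, 18.9 and 20.7 CPM in Control and 27.8, 32.3 and 33.7 in GWI. The groups were separated by a gap wider than the range of either group, and Control 1 was the highest Control colon. That made a log2 fold change of 0.73 with an SE of 0.07, or 1.66-fold (edgeR adjusted p = 3.3e-05). B4galt1, which also takes part in lactose synthesis in the mammary gland, had 68.4, 79.6 and 132 CPM in Control and 94.2, 126 and 151 in GWI. Every Control colon but Control 1 lay below all GWI colons, and the log2 fold change was 0.55 with an SE of 0.12 (edgeR adjusted p = 0.005).

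B4galt4, the most abundant of this family per length, rose by 0.39 on the log2 scale (edgeR adjusted p = 0.034), with medians of 71.4 CPM in Control and 86.0 in GWI. B4galt7, which adds the galactose next to xylose in the linker of proteoglycans, rose by 0.32 (edgeR adjusted p = 0.026). B4galt2 moved the other way. It had 6.23, 17.2 and 23.9 CPM in Control and 5.56, 7.17 and 13.7 in GWI. Control 7, Control 8 and Control 9 lay within the GWI range and the other 6 Control colons above it. The log2 fold change was -0.89 with an SE of 0.28 (edgeR adjusted p = 0.026). With the muscle minus epithelium score as a covariate the fold change of B4galt2 was 0.26 and not called.

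B3gnt3, which lengthens the core galactose with N-acetylglucosamine, had 78.0, 154 and 254 CPM in Control and 211, 247 and 283 in GWI. Again every Control colon but Control 1 lay below all GWI colons, and Control 9 was the lowest. The log2 fold change was 0.63 with an SE of 0.15 (edgeR adjusted p = 0.0079). B3galt5, which ends chains with galactose in beta-1,3 linkage and made up 89.6% of the per-length level of its family, rose by 0.97 (edgeR adjusted p = 0.015), with medians of 273 CPM in Control and 653 in GWI. Its highest values were 856 CPM in Control 1 and 1062 in GWI 5, and the other 8 Control colons lay below all GWI colons. B3galt6, another enzyme of the proteoglycan linker, fell by 0.43 on the log2 scale (edgeR adjusted p = 0.044), a call that was kept in 12 of 30 alternative analyses.

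Of the 4 B4galnt genes, which cap chains or build glycolipids, 3 were called higher, beside 13.4% of all tested genes. B4galnt2 adds N-acetylgalactosamine to sialylated galactose. Its level was 316, 415 and 494 CPM in Control and 470.3, 934 and 1060 in GWI. The Control colons were closely spaced and 7 of the GWI colons lay between 707 and 1060 CPM, while GWI 5, at 470.3, lay below Control 7. On the log2 scale the fold change was 1.10 with an SE of 0.14, or 2.14-fold (edgeR adjusted p = 2.7e-04), and it ranked 19 by p-value among all tested genes.

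B4galnt3, which makes the LacdiNAc group (N-acetylgalactosamine linked to N-acetylglucosamine), had 8.02, 10.7 and 24.6 CPM in Control and 21.9, 25.4 and 30.8 in GWI. Control 1, at 24.6, was the only Control colon inside the GWI range. On the log2 scale the fold change was 1.11 with an SE of 0.18 (edgeR adjusted p = 7.9e-04). B4galnt1, the synthase of the GM2 and GD2 gangliosides, rose by 0.43 (edgeR adjusted p = 0.041). B4galnt4 was not called, with a log2 fold change of -0.11 and an SE of 0.15.

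**Figure D2:**
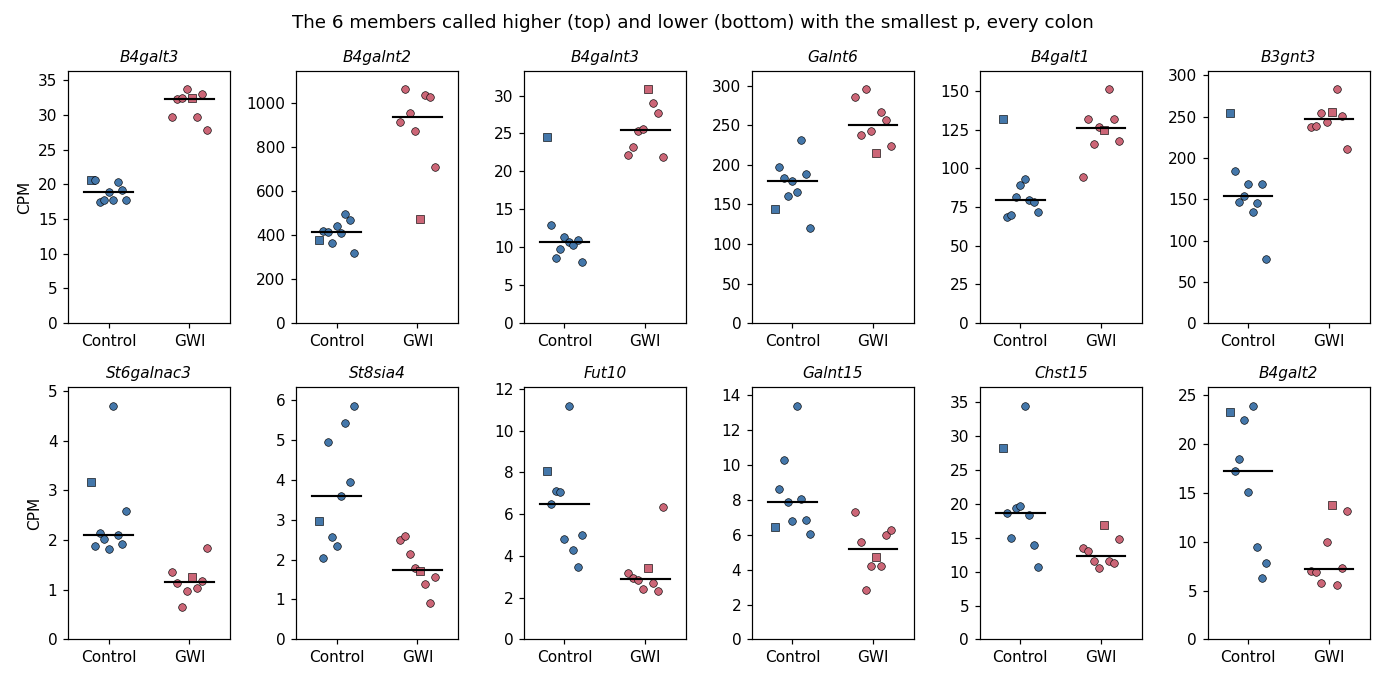
CPM (vertical axis, from 0) in each of the 9 Control (blue) and 8 GWI (red) colons for the 6 members called higher and the 6 called lower with the smallest p. Bars are group medians and squares mark Control 1 and GWI 5. B4galt3 is the member with no overlap, from 17.5 to 20.7 CPM in Control and from 27.8 to 33.7 in GWI.

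Of the fucosyltransferases, 7 were tested and 1, Fut10, was called by edgeR and by DESeq2. Of all tested genes, 13.5% were called lower by edgeR and 12.3% by DESeq2. Fut10 had 3.48, 6.48 and 11.2 CPM in Control and 2.33, 2.89 and 6.36 in GWI. The GWI values were close together but for GWI 8, at 6.36 against 3.41 for the next. Fut10 had a log2 fold change of -0.97 with an SE of 0.24 (edgeR adjusted p = 0.009). Fut2, which makes the H antigen of gut mucins and led the family per length, had medians of 177 CPM in Control and 261 in GWI, all 8 GWI colons were above the Control median, and the log2 fold change was 0.35 with an SE of 0.18 (edgeR adjusted p = 0.15). Limma-voom called Fut2 higher, at 0.68 (limma adjusted p = 3.7e-04), and Fut4 higher, beside Fut10 lower. With the muscle minus epithelium score Fut2 turned to -0.13 and was not called, and Fut8 was called lower at -0.69 (edgeR adjusted p = 0.034), from -0.08 without it.

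With every colon and no covariate, none of the 6 St3gal genes was called by edgeR, where St3gal2 alone had an unadjusted p under 0.05. DESeq2 called St3gal3 higher and St3gal2 lower, and limma-voom called St3gal1 higher and St3gal2 lower. St3gal3 had a log2 fold change of 0.81 with DESeq2, 0.10 with edgeR and -0.40 without GWI 5. Without Control 1 edgeR called St3gal3 higher, at 0.85 (edgeR adjusted p = 0.047). Without Control 1 and GWI 5 it was 0.34 and not called (edgeR adjusted p = 0.11). St3gal2 had -0.78 with edgeR and 0.51, not called, with the muscle minus epithelium score. Of the 6, 5 were highest in Control 1 and GWI 5 together. St3gal4 had 96.6, 126 and 900.3 CPM in Control and 65.9, 122 and 453 in GWI, with Control 1 and GWI 5 the highest. Its log2 fold change was -0.50 with an SE of 0.48 (edgeR adjusted p = 0.44), and it was positive, at 0.18, with DESeq2 and without Control 1 and, at 0.05, with the muscle minus epithelium score. St3gal1, St3gal3 and St3gal6, singled out after their values were seen, were 7.90, 7.13 and 7.97 times the median of the other Control colons in Control 1, and 3.39, 5.12 and 5.17 times that of the other GWI colons in GWI 5. Without both colons St3gal1 had a log2 fold change of 1.05 with an SE of 0.19 (edgeR adjusted p = 7.5e-04), against 0.65 with an SE of 0.49 (edgeR adjusted p = 0.32) with every colon.

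St6gal1, which caps N-glycans, had medians of 61.8 CPM in Control and 74.0 in GWI and a log2 fold change of 0.25 with an SE of 0.19 (edgeR adjusted p = 0.34), which turned to -0.26 with the muscle minus epithelium score. St6galnac6 held 97.8% of the summed per-length level of the St6galnac genes, without St6galnac2, which has no per-length level here because its symbol has a pair of entries. It had 338, 413 and 922 CPM in Control and 474, 534 and 818 in GWI. All 8 Control colons other than Control 1 lay below every GWI colon. The log2 fold change was 0.31 with an SE of 0.18 (edgeR adjusted p = 0.2), and 0.41 with an SE of 0.08 (edgeR adjusted p = 0.0019) without Control 1 and GWI 5.

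The sialyltransferases called lower had few counts. St6galnac3 had 1.81, 2.10 and 4.70 CPM in Control and 0.644, 1.15 and 1.84 in GWI. GWI 8, at 1.84, was just above Control 5, at 1.81, and these were the only overlapping colons. St6galnac3 had a log2 fold change of -1.07 with an SE of 0.23 (edgeR adjusted p = 0.0043). St8sia4, which builds polysialic acid, had 2.05, 3.59 and 5.85 CPM in Control and 0.921, 1.74 and 2.60 in GWI. All GWI colons lay below the Control median and 6 Control colons lay above all GWI colons. St8sia4 had a log2 fold change of -1.03 with an SE of 0.25 (edgeR adjusted p = 0.0074). St8sia6, the leading gene of that family, fell by 0.74 on the log2 scale (edgeR adjusted p = 0.043), with medians of 1.96 CPM in Control and 1.29 in GWI, and kept that call in 14 of 30 alternative analyses. The log2 fold changes of the 4 tested St8sia genes ran from -1.03 to -0.72, and 2 of them were called by edgeR and 4 by limma-voom. Of all tested genes, 13.5% and 29.5% were called lower by these tools. With the muscle minus epithelium score St8sia1 and St8sia3 turned to 0.62 and 0.46 and were not called.

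Of the sulfotransferases, 10 were tested and 3, Chst15, Chst2 and Chst10, were called by edgeR and by DESeq2, all lower. The share of all tested genes called lower was 13.5% by edgeR, 12.3% by DESeq2 and 29.5% by limma-voom. Limma-voom called 6 lower and Chst4 higher, at 0.55 (limma adjusted p = 0.012). Chst12 had a log2 fold change of -0.58 with every colon and was not called by edgeR, and with the muscle minus epithelium score it was called higher at 0.78 (edgeR adjusted p = 0.031). Chst15, which adds a sulfate to chondroitin sulfate, had 10.7, 18.6 and 34.5 CPM in Control and 10.6, 12.4 and 16.9 in GWI. Control 6 and Control 1 were the highest, Control 9 the lowest of its group, and every GWI colon was below the Control median. Chst15 had a log2 fold change of -0.62 with an SE of 0.19 (edgeR adjusted p = 0.023). With the muscle minus epithelium score it was 0.07 and not called. Chst2 fell by 0.63 (edgeR adjusted p = 0.028) and Chst10, which makes the HNK-1 epitope of neural tissue, fell by 0.99 (edgeR adjusted p = 0.039). The call of Chst10 was kept in 15 of the 29 alternative analyses that tested it. Chst4, the leading gene per length, had medians of 25.3 CPM in Control and 35.8 in GWI and a log2 fold change of 0.39 with an SE of 0.20 (edgeR adjusted p = 0.15).

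The count filter removed 14 of the 93 entries. St6galnac1 had 1 count in all 17 colons together and Chst9 had 3. The totals of the others were 8 for St8sia3os, 16 for Fut7, 17 for St8sia5, 43 for Chst13, 47 for B3gnt4, 53 for St8sia2, 54 for Gcnt7, 75 for Chst3, 93 for St6gal2, 118 for Galnt6os, 122 for Galnt14 and 176 for Chst7. In the edgeR fit with no filter 0 of the 14 were called and 2 had an unadjusted p under 0.05, Chst3 at -1.56 (edgeR adjusted p = 0.09) and Galnt6os at 1.05 (edgeR adjusted p = 0.15). DESeq2 gave an adjusted p to 5 of the 14 and called 0, with Chst3 at -1.61 (DESeq2 adjusted p = 0.051).

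Genes around the members were counted in 5 lists, and their counts stand beside 13.4% called higher and 13.5% called lower among all tested genes. The mucin list had 9 tested genes, 8 mucin genes and Fcgbp, a mucus protein that is also among the goblet cell markers. Of the 9, 5 were called higher, all of them mucin genes, and 0 lower, with a median log2 fold change of 0.78 beside -0.06 over all tested genes. Muc2, the gel-forming mucin of goblet cells, had 4615, 9207 and 10056 CPM in Control and 8197, 11613 and 16663 in GWI. The lowest Control values were in Control 1 and Control 9 and the lowest GWI value in GWI 5, and 6 GWI colons lay above all Control colons. Muc2 rose by 0.51 on the log2 scale with an SE of 0.18 (edgeR adjusted p = 0.047) and the membrane mucin Muc13 by 0.78 with an SE of 0.18 (edgeR adjusted p = 0.0066). Genes of the list called higher numbered 8 without Control 1, 3 without GWI 1 and 3 without Control 6 and Control 7, while 17.9%, 12.5% and 10.1% of all tested genes were called higher there.

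Of 33 genes of nucleotide sugar and sulfate donor supply, 7 were called higher and 0 lower, with a median of 0.10. They included Papss2, a synthase of the sulfate donor, with a log2 fold change of 0.81 (edgeR adjusted p = 0.0036), the sulfate transporter Slc26a2 with 0.44 (edgeR adjusted p = 0.033) and the GDP-fucose transporter Slc35c1 with 0.62 (edgeR adjusted p = 0.0027). Of 13 genes of N-glycan branching, 4 were called higher and 0 lower, with a median of 0.15, and Mgat5 rose by 0.58 (edgeR adjusted p = 0.0014). Of 15 genes of glycan breakdown, among them the sialidases Neu2 and Neu3, which are not lysosomal, 7 were called higher and 0 lower, with a median of 0.25. Neu3 had a log2 fold change of -0.69 with an SE of 0.25 (edgeR adjusted p = 0.051) and was the gene of that list that DESeq2 called lower. Of 41 tested transferases outside the rule, 7 were called higher and 8 lower, with a median of 0.04. In that list Gal3st1, Pofut1, Xylt2, Ext2, Ndst1, Ndst2 and Hs6st1 were called higher, and B3galnt1, Gbgt1, Csgalnact1, Csgalnact2, Chsy1, Extl2, Ndst3 and Dse lower. Ndst3, which acts at the same step of heparan sulfate synthesis as Ndst1 and Ndst2, had a log2 fold change of -1.06 (edgeR adjusted p = 0.011). Called lower by edgeR were 0 genes of the mucin, donor supply, branching and breakdown lists, where those with an unadjusted p under 0.05 and a negative fold change numbered 0, 0, 1 and 1, DESeq2 called 0, 0, 1 and 1, and limma-voom 0, 0, 3 and 1. Genes of breakdown called higher numbered 4 without GWI 3 or GWI 6 and 3 without Control 6 and Control 7, and 1 was called lower without Control 8, Control 9 or GWI 5. Of the branching genes 2 were called lower without Control 9 and 1 without Control 8 or GWI 8. Of the transferases outside the rule 4 were called higher without Control 6 and Control 7. Over the 5 lists, 18 genes were called higher instead of 30 without Control 6 and Control 7. In the fits named for these lists, 10.1% to 10.9% of all tested genes were called higher where the higher count moved and 13.7% to 15.8% lower where the lower count moved.

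Markers of the cell layers also differed between the groups. Their counts stand beside 13.4% called higher and 13.5% called lower among all tested genes. Of 10 smooth muscle markers, 7 were called lower and 0 higher, and their summed level was 3690, 11584 and 23923 CPM in Control and 3658, 5142 and 11832 in GWI. The sum in 5 Control colons lay within the GWI range, at 11584 in Control 2, 11188 in Control 3, 6790 in Control 7, 4702 in Control 8 and 3690 in Control 9, and was highest in Control 6. Actg2 was the most abundant per length. Of 11 epithelium markers, 4 were called higher and 0 lower, and the sum was 10775, 14156 and 21010 CPM in Control and 14293, 18602 and 20881 in GWI, with Krt8 the most abundant.

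A score of the smooth muscle minus the epithelium markers ran from -1.36 to 1.14 in Control and from -2.03 to -0.65 in GWI on the log2 scale, so the score and the group cannot be told apart in full. With it in the model, 8 members were called higher, of which 5 were among the 12, and 5 were called lower, of which 2 were among the 10, while 11.8% and 14.4% of all tested genes were called. B4galt3, B4galnt2, B4galnt3, B4galt1 and B3gnt3 were the 5. The 2 were St8sia4 and B3galt6. The other members called with it were Chst12, Galnt18 and St6galnac4 higher, at 0.78, 0.82 and 0.64, and B3galt2, C1galt1c1 and Fut8 lower, at -1.53, -1.18 and -0.69. The fold change turned its sign with the score in 36 of the 79 members, 45.6%, as in 28.1% of all tested genes. B4galt3 then had a log2 fold change of 0.68 with an SE of 0.10 (edgeR adjusted p = 0.0057) and B4galnt2 had 0.83 with an SE of 0.20 (edgeR adjusted p = 0.0095). The fold changes of B4galt2, Chst10 and Chst15 became positive, at 0.26, 0.08 and 0.07, and were not called. Galnt12, B4galt4 and Galnt4 went to 0.01, 0.08 and 0.15, Galnt6, B3galt5, B4galt7 and B4galnt1 to 0.42, 0.99, 0.29 and 0.34. Of the others called lower with every colon and no covariate, St8sia6, Fut10, Galnt15, Chst2 and St6galnac3 went to -0.13, -0.15, -0.24, -0.30 and -0.51. None of these was called with the score in the model.

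**Figure D3:**
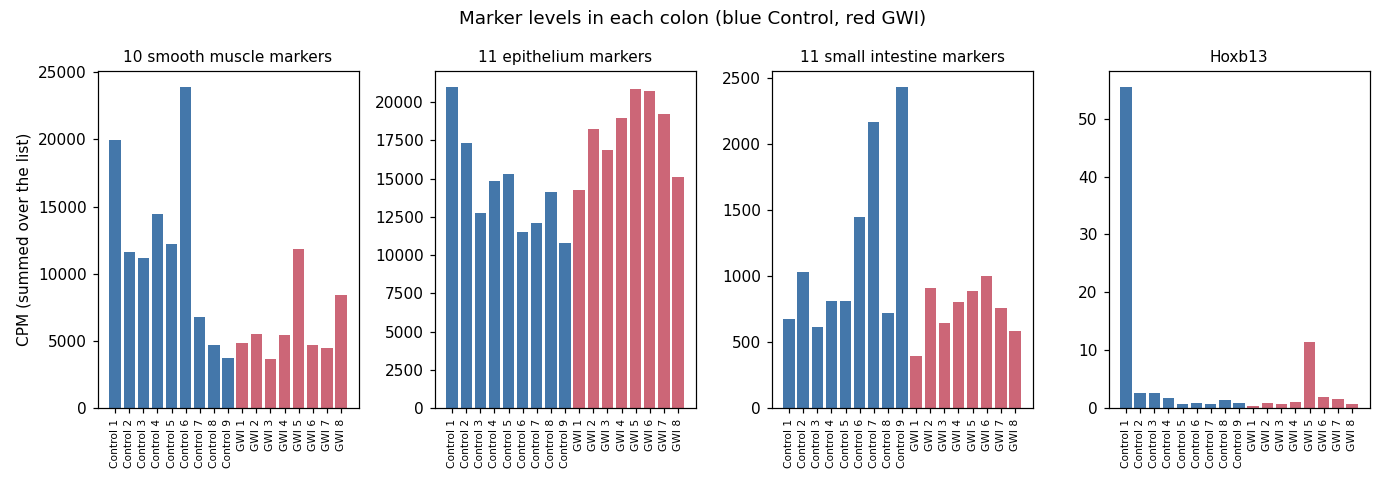
Summed CPM (vertical axis, from 0) of the smooth muscle, epithelium and small intestine markers and CPM of Hoxb13 in each colon, Control in blue and GWI in red. The smooth muscle sum is highest in Control 6 at 23923 CPM, and Hoxb13 is highest in Control 1 at 55.5 CPM and in GWI 5 at 11.4.

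Other marker lists were counted the same way, and their part in the members' results was not tested. Of the goblet cell markers 1 of 11 was called higher by edgeR (Muc2) and 0 lower, while DESeq2 called 3 higher and limma-voom 6. The summed median was 14882 CPM in Control and 18647 in GWI, and Muc2 alone held 60.1% of the summed level. The median log2 fold change of the 11 was 0.05, and 8 of them were positive. None of 5 absorptive colonocyte markers was called, with Car1 the most abundant and a sum of 32279 CPM in Control 9. None of 4 tested tuft cell, 8 enteric neuron or 4 adipocyte markers was called by edgeR. At an unadjusted p under 0.05 there were 1, 0 and 1, and 0 of the absorptive colonocyte markers, and DESeq2 called 0 in each of these lists. By limma-voom 1 tuft cell and 2 absorptive colonocyte markers were called higher, 7 enteric neuron markers lower and 0 adipocyte markers. Of all tested genes, limma-voom called 27.6% higher and 29.5% lower, and DESeq2 11.1% and 12.3%. For tuft cells, neurons and adipocytes the summed medians in Control and GWI were 64.4 and 68.3, 234 and 164, and 46.7 and 115 CPM, with Avil, Uchl1 and Cfd the most abundant. Called lower by edgeR were 2 of 7 fibroblast markers (summed medians 736 and 522 CPM, Dpt the most abundant), 1 of 5 endothelium markers (94.2 and 66.6, Cldn5), 1 of 6 tested leukocyte markers (84.0 and 61.0, Lyz2) and 1 of 4 tested enteric glia markers (62.8 and 42.8, S100b). DESeq2 and limma-voom called lower 2 and 5 fibroblast, 2 and 3 endothelium, 1 and 3 leukocyte and 3 and 3 enteric glia markers. Of 6 tested small intestine markers 3 were called lower by edgeR, 2 by DESeq2 and 0 by limma-voom. The sums were 1444, 2163 and 2433 CPM in Control 6, Control 7 and Control 9 and at most 1031 in the others, and Fabp2 held 81.3% of the summed level. The small intestine score, a mean of log2 CPM over these markers, was 4.64 in Control 6 and 5.47 in Control 7. It was 1.56 in Control 9 and at most 1.63 in the other colons. Hoxb13 was not called. None of the marker genes counted had 0 counts in every colon.

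Some members share exon sequence with another gene in GENCODE M21 (GRCm38), and whether the counting used strand is not given in the sources used here, so their counts are uncertain. B4galt3 (chr1:171270328-171276896, plus strand) shares 791 exon bases with Ppox on the other strand, 14.5% of its exon length. Ppox had medians of 14.7 CPM in Control and 17.1 in GWI and a log2 fold change of 0.24 with an SE of 0.09 (edgeR adjusted p = 0.045). B4galnt2 (chr11:95865943-95914891, minus strand) shares 263 exon bases, 15.3% of its exon length, with the antisense gene Gm11534, which was not analysed here. Galnt6 shares 441 bases with Galnt6os, whose highest value in any colon was 0.976 CPM. Galnt4 shares 420 bases with Poc1b on the same strand, and Poc1b rose by 0.38 with an SE of 0.09 (edgeR adjusted p = 0.006). B4galt2 shares 1417 exon bases, 28.2% of its exon length, with Ccdc24 on the same strand, which had too few counts to test and at most 0.797 CPM in any colon. It shares 46 bases with Slc6a9 on the other strand, which had a log2 fold change of 0.44 (edgeR adjusted p = 0.039). B4galnt1 shares 715 bases, 20.7% of its exon length, with Slc26a10 on the other strand, which had a log2 fold change of -0.36 (edgeR adjusted p = 0.19) and at most 2.84 CPM. Chst15 shares 1206 exon bases, 17.9% of its exon length, with the antisense gene Gm10584. B4galnt3 shares 169 bases (4.5%) with D330020A13Rik on the other strand, B4galt7 110 bases (3.8%) with the antisense gene Gm15911, and St8sia6 112 bases (1.5%) with the antisense gene Gm37126. These partners were not analysed here.

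Promoter sequences, from 250 bases before to 50 after the start (RefSeq, GRCm38.p6, the start listed at the top for each gene), were found for 69 of the members, among them 9 of those called higher and 9 of those called lower. Motifs were searched by their letters on both strands, and none overlaps another in letters. The GC box GGGCGG was in 77.8% of the 9 promoters of genes called higher, 66.7% of the 9 called lower, 68.1% of the 69 members and 35.9% of all 27025 promoters of the table. The CCAAT box CCAAT was in 11.1%, 22.2%, 33.3% and 37.9% of the same sets. The CDX motif TTTATG was in 11.1%, 0%, 8.7% and 12.1%, and the HNF4 motif CAAAGT in 22.2%, 0%, 8.7% and 14.3%. The median GC content was 60.3% for the 9 called higher, 66% for the 9 called lower, 63.3% for the 69 members and 52.7% for all promoters. A match is a description of letters and says nothing of a factor.

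The promoters of the members with the smallest p in each direction are shown, 3 of genes called higher and 2 of genes called lower, so that both sets can be read beside each other, with every searched motif in capitals. They are B4galt3 (chr1:171270078-171270377, plus strand), B4galnt2 (chr11:95914822-95915121, minus strand), B4galnt3 (chr6:120294848-120295147, minus strand), St6galnac3 (chr3:153725084-153725383, minus strand) and St8sia4 (chr1:95667545-95667844, minus strand). Only the GC box (GGGCGG, or CCGCCC on the other strand) and the CCAAT box (CCAAT, or ATTGG on the other strand) occur in them.
B4galt3: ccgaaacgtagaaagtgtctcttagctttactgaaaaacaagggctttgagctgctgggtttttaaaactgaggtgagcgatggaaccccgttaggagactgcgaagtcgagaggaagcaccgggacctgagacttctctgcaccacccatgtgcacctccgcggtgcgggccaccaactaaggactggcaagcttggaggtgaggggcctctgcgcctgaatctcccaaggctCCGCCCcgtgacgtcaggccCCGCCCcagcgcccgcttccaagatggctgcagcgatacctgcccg
B4galnt2: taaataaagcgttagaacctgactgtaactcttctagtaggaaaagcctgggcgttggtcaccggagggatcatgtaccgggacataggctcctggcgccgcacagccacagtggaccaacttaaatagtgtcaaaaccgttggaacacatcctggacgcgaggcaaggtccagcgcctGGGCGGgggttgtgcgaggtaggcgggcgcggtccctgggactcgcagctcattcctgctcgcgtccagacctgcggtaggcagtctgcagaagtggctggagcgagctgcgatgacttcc
B4galnt3: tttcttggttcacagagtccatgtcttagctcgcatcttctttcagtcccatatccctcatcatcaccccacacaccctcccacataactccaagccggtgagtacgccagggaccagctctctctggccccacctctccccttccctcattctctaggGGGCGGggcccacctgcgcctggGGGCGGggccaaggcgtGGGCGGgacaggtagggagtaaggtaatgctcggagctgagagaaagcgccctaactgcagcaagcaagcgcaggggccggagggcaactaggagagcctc
St6galnac3: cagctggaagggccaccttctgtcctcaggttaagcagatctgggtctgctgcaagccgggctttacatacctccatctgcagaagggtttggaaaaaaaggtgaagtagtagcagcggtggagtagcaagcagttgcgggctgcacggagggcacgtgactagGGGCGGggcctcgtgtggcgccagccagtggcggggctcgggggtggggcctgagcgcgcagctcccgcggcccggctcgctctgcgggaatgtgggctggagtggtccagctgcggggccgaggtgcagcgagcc
St8sia4: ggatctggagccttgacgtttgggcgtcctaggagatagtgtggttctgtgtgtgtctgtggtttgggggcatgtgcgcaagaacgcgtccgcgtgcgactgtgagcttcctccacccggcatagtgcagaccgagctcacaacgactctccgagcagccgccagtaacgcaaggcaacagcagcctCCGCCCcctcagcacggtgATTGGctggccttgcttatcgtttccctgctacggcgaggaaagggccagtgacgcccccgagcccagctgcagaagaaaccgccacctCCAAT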

How the data were processed

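Bulk RNA from 17 colons, 9 Control and 8 GWI, was analysed from raw read counts per gene that the authors deposited. Per the submitters' processing notes and the study's methods, reads were trimmed with Trimmomatic 0.36, mapped to GRCm38 with STAR 2.5.2b and counted with featureCounts. All 23719 rows entered, with repeated symbols kept as separate rows. Genes passing filterByExpr (14146) were scaled by TMM and tested with edgeR 4.0.16 (robust quasi-likelihood fit, no covariate, adjustment over all tested genes) in R 4.3.3. The SE is the absolute log2 fold change over the square root of the F statistic. DESeq2 1.42.0 and limma 3.58.1 served as alternatives. The fits were tested on simulated data. Exon lengths and overlaps came from GENCODE M21. Named with full values were the 6 called members with the smallest p in each direction, with fold and p the other called members, with level and fold the most abundant gene of each family, and with counts the untested members. The members and lists were chosen with earlier results of these data known. Alternatives covered scaling, test, filter, block, marker scores as covariates and left-out colons.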

Additional observations from a re-analysis of the deposited data

Results flagged for a closer look

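In 18 of 84 groups of values the highest or lowest colon lay far from the rest of its group. Its gap to the nearest colon, over the range of the group, was past the 95% critical value of Dixon's test. The 1 in 20 rate of that value is for independent groups of normal values. These groups share the same 17 libraries, so the count of 18 cannot be set against that rate. Of the 18, 8 were in Control 1 and 5 in GWI 5. In Control 1 they were B4galnt3 at 24.6 CPM, B4galt1 at 132 (next 93.0), B3galt5 at 856 (next 436), B3galt6 at 4.86 (next 8.47), St3gal4 at 900.3 (next 243), St6galnac6 at 922 (next 422), the summed goblet cell markers at 21382 (next 16511) and the distal colon marker Hoxb13 at 55.5 (next 2.67). In GWI 5 they were B3galt5 at 1062 CPM (next 724), Chst2 at 4.54 (next 2.68), St3gal4 at 453 (next 199), St6galnac6 at 818 (next 579) and Hoxb13 at 11.4 (next 1.83).

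In Control 9, C1galt1c1 reached 320.3 CPM (next 160.2) and the summed absorptive colonocyte markers 32279 (next 17156). St6galnac3 was 4.70 CPM in Control 6 (next 3.16), Fut10 was 6.36 in GWI 8 (next 3.41) and the summed adipocyte markers were 427 in GWI 7 (next 187).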

How the results depend on the processing

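B4galt3, B4galnt2, B4galnt3, B4galt1 and B3gnt3 were called higher in all 30 alternatives, 2 of which, both leaving out several colons, were chosen after seeing the data. Over the 22 called members and all alternatives, 542 of 659 fold changes kept their direction and call, 114 kept their direction alone and 3 turned, all with the muscle minus epithelium score as a covariate: B4galt2 at 0.26, Chst10 at 0.08 and Chst15 at 0.07. The call was kept in 12 of 30 for B3galt6, 14 for St8sia6, 15 of 29 for Chst10, 17 for B4galnt1, 19 for Galnt12 and B4galt4, 21 for Chst2, 23 for B4galt7, 25 for B4galt2 and 27 to 29 for the other 8. The causes were not tested.

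Against 12 members called higher and 10 lower, limma-voom with quality weights gave 30 and 22. The lower count was 5 with the muscle minus epithelium score, 6 with the small intestine score and 5 without Control 6 and Control 7. The higher count was 19 without Control 1 and GWI 5. At an adjusted p under 0.01 the counts were 6 and 3. Of all tested genes, 27.6% and 29.5% were called by limma-voom, 14.4%, 8.77% and 9.56% lower and 17.4% higher in the next fits in the order named, and 5.89% and 3.73% under 0.01. Leaving out each colon gave 8 to 20 higher and 5 to 12 lower. In the same fits 10.4% to 17.9% of all tested genes were called higher and 9.21% to 16.3% lower.

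Past the size rule, against 2 and 2, limma-voom gave 5 and 8. The higher count was 4 without Control 1 and GWI 5, 4 without Control 1 and 5 without Control 1, 6, 7 and 9 and GWI 5, where the lower count was 4. The lower count was 4 with the muscle minus epithelium score, 5 with the small intestine score and 1 without Control 6 and Control 7. Leaving out each colon gave 2 to 4 higher and 1 to 7 lower, with 7 without GWI 5, 5 without Control 8, 4 without Control 5, Control 7 or GWI 8, and 1 without Control 3, Control 6, GWI 3, GWI 6 or GWI 7. All tested genes past the rule were 1.75% and 5.99% with limma-voom, then in the order named 1.41%, 1.65% and 227 of 14228 higher and 2.99%, 2.34%, 2.14% and 1.37% lower, and 0.533% to 1.65% higher and 1.14% to 3.44% lower with each colon left out.

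GWI lay above Control without overlap in 1 member with all colons, in 3 without Control 6 and Control 7, in 8 without Control 1 and GWI 5, and in 9 without Control 1, 6, 7 and 9 and GWI 5, where it lay below in 1 against 0. The shares of all tested genes above were 1.83%, 2.11%, 5.91% and 8.77% in the same order, and below 5.92% against 0.523%. Leaving out each colon gave 1 to 6 above (6 without Control 1, 3 without Control 7 or GWI 5) and 0 to 2 below (2 without GWI 8, 1 without Control 5), beside 5.06%, 1.94%, 2.69%, 0.990% and 0.558% of all tested genes.

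Over the 5 pathway lists, against 30 higher and 8 lower, library size alone gave 19 higher, limma-voom 48 and 15, the muscle minus epithelium score 19 and 14, the small intestine score 4 lower, and the fit without Control 6 and Control 7 gave 18 higher. All tested genes called were 10.8% higher with library size alone, 11.8% and 14.4% with the muscle score, 8.77% lower with the small intestine score and 10.1% higher without Control 6 and Control 7. With limma-voom the shares were 27.6% and 29.5%. Leaving out each colon gave 21 to 37 higher and 7 to 10 lower, beside 10.4% to 17.9% and 9.21% to 16.3% of all tested genes.

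With the replicate number as a block, 7 members were called higher and 3 lower, and 16 and 3 genes of the pathway lists, while 10.0% and 5.84% of all tested genes were called. The numbers do not pair the colons: the 8 same-numbered deviations correlated from -0.506 to 0.115, 1 of them over 0.1, and 0 Control colons matched their own number best. Of the members up to 10 CPM 27.6% were called lower and of those over 10 CPM 4.00%, beside 726 of 4524 and 12.2% of all tested genes, and the effect of depth was not tested.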

Other observations

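St3gal5, the GM3 ganglioside synthase, was picked out after its values were seen. It had 27.3 CPM in Control 6, 26.1 in Control 9, 41.3 in GWI 2 and 32.1 in GWI 6, and between 3.04 and 8.41 in the other 13 colons, so high colons were found in both groups. St3gal5 was not called, with a log2 fold change of 0.44 and an SE of 0.61 (edgeR adjusted p = 0.61).

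Without Control 1 and GWI 5, 7 further members were called higher, B3gnt2, B3gnt7, B4galt5, Gcnt1, St3gal1, St6galnac4 and St6galnac6, and St3gal2 was called lower. Of all tested genes 17.4% were called higher there, against 13.4% with every colon. The counts of B3gnt2 are uncertain, since it shares 58.6% of its exon length with Gm28048 on the same strand, which was not analysed here. B4galt5, a lactosylceramide synthase, then had a log2 fold change of 0.50 with an SE of 0.10 (edgeR adjusted p = 0.0012), against 0.33 with an SE of 0.17 (edgeR adjusted p = 0.15) with every colon. In B4galt5 all 8 GWI colons lay above the Control median of 32.9 CPM, and Control 1, at 78.7 CPM, was the highest of all 17 colons.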
